A study of Dugesia japonica with 18 samples.

Results

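The first sampling time after X-irradiation in this series was day 0.5, and the 3 libraries of that time were compared with the 3 libraries of unirradiated animals (day 0). The comparison covered the 17129 gene models, of 25566 in the deposited count table, that passed a filter on low counts. The 8437 gene models that did not pass held between 0.157% and 0.165% of the reads of each of the 6 libraries, and 1160 of them had no count in any of the 6. The filter was applied over all 18 libraries of the series, so a gene model could also pass through a later day. With the 6 libraries alone, 16726 passed.

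The animals were planarians, *Dugesia japonica*, of the clonal strain SSP (sexualizing super planarian), about 5 mm long and starved before the experiment, and whole bodies were lysed. The day 0.5 animals had received X-rays at 150 Roentgens 0.5 days earlier. The day 0 animals were not irradiated per the series' design text, although the treatment description in the labels makes no exception for them. The other 12 libraries, 3 each at days 1, 3, 5 and 7 after irradiation, entered the shared estimate of spread and the later comparisons. Since no unirradiated animals were sampled at day 0.5, irradiation, handling and elapsed time cannot be told apart. The strain is 1 clone, and how many animals went into each library was not stated in the labels. The replicates are called biological in the labels without saying what separates them, so the p-values measure the spread between these libraries.

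Planarians keep a population of dividing stem cells, the neoblasts, which supply all other cell types and allow the animal to regenerate. Neoblasts are the main dividing cells of the adult body, and X-rays are the classical means of removing them. Transcripts of neoblasts and of the cell cycle are known to be lost first after irradiation, and those of the short-lived progeny cells afterwards, while differentiated tissue persists for longer. In RNA from whole animals, fewer cells of a type and less RNA per cell cannot be told apart. The deposited files list gene models by ID alone, without names. Markers of neoblasts or of any tissue could therefore not be looked up, the whole-body label could not be checked against tissue markers, and the changes below are described by size, level and later course. No role is given to any of the 4 IDs named.

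Reads were counted by 3' mRNA sequencing, in which a transcript is counted from its 3' end. Day 0.5 replicates 1 to 3 held 7133552, 10965351 and 10889747 counts, and day 0 replicates 1 to 3 held 11695734, 12605652 and 7760430 counts. The groups overlapped in depth, and their means did not differ beyond the spread (exact two-sided permutation test, p = 0.5, where 0.1 is the smallest p possible). The ERCC control RNAs took 40.5 ± 0.684 CPM (read counts relative to library size) in the day 0.5 libraries, against 40.2 ± 2.55 in the day 0 libraries (SD, 3 per group; exact two-sided permutation test, p = 1). They rest on 294 to 487 counts per library.

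By the median difference over gene models, the spread within the groups was not much smaller than the distance between them. The median absolute difference in log2 CPM (here, as in all that follows, with the library sizes TMM-scaled) between 2 libraries was 0.18 to 0.25 within day 0.5 and 0.19 to 0.20 within day 0. Between a day 0.5 and a day 0 library it was 0.25 to 0.29. Day 0.5 replicate 1, the shallowest of the 6, stood apart from the other two of its group, at 0.25 from replicate 2 and 0.23 from replicate 3, whereas these differed by 0.18 from each other. No pair of replicates was alike within sampling noise, with a chi-square per gene model of 3.52 to 9.16 where sampling alone gives about 1. Between a day 0.5 and a day 0 library the chi-square was 11.6 to 21.9, above that of every pair within a group.

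At day 0.5 many more transcripts had gone down than up. Of the 17129 gene models, 10% differed from day 0 by edgeR's quasi-likelihood test at an adjusted p below 0.05: 1275 (7.44%) fell and 443 (2.59%) rose. Of the 1275 that fell, 454 did so by less than 1.5-fold, 501 by 1.5-fold to 2-fold, 246 by 2-fold to 4-fold and 74 by 4-fold or more. Of the 443 that rose, 357 rose by less than 1.5-fold, 68 by 1.5-fold to 2-fold, 15 by 2-fold to 4-fold and 3 by 4-fold or more. So 80.6% of the rises and 35.6% of the falls were under 1.5-fold. The median level was lower for the falls. Within a level the median sizes were closer, though still larger for the falls (given by class with the levels). Whether level accounts for the difference in size was not tested.

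These counts depended on single libraries and on the scaling. With day 0.5 replicate 1, which stood apart, left out, 1287 fell and 328 rose. Dropping day 0.5 replicate 2 gave 694 falls and 240 rises, and dropping day 0 replicate 1 gave 685 falls and 191 rises. The rises were 222 without day 0.5 replicate 3, 253 without day 0 replicate 2 and 259 without day 0 replicate 3. With scaling by the ERCC controls 814 fell and 67 rose, so that 92.4% of the calls were falls, and with upper-quartile scaling 1071 fell and 689 rose, 60.9% falls, against 74.2% with the main scaling. Falls outnumbered rises under every setting tried.

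Among all gene models tested the median log2 fold change was -0.01, with 90% of them between -0.77 and 0.47. The median log2 fold change was -0.69 for the falls and 0.40 for the rises. The median standard error was 0.16 for the falls and 0.10 for the rises. The smallest change called was 0.25 among the falls and 0.24 among the rises, as sizes on the log2 scale, and 15411 gene models were not called, of which 2136 had an unadjusted p below 0.05. The call turned at adjusted p = 0.0499 just inside the limit (log2 fold change -0.49) and 0.0502 just outside it (log2 fold change -0.34; edgeR).

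**Figure D1:**
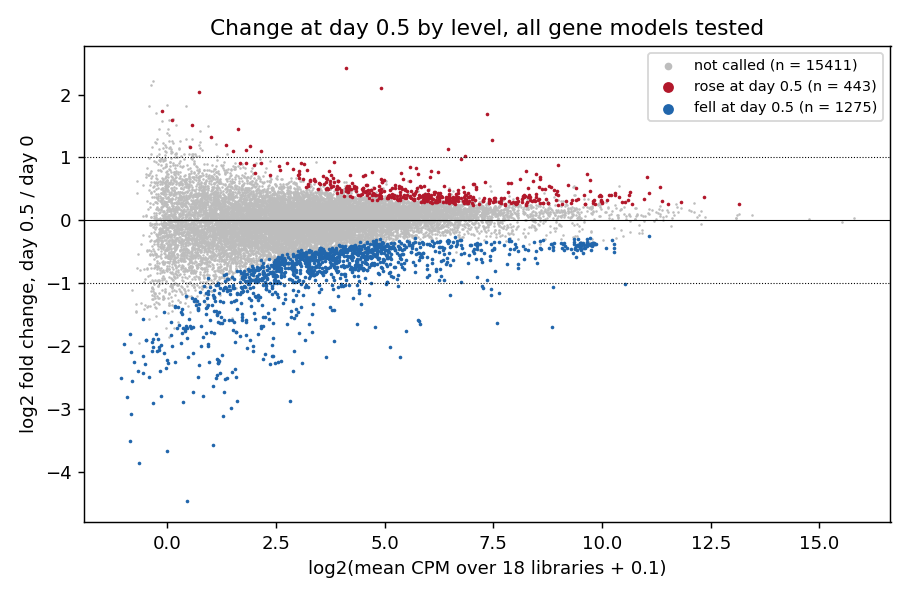
Log2 fold change of day 0.5 over day 0 (vertical axis) against log2 of the mean CPM over 18 libraries plus 0.1 (horizontal axis), 1 point per gene model tested. Red points rose (443), blue points fell (1275), grey points were not called (15411), and dotted lines mark 2-fold; the blue points reach further from 0 than the red ones, and most red points lie at the right.

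The libraries of the groups did not overlap for 4842 of the gene models tested (28.3%): day 0.5 was lower than every day 0 library in 2793 (16.3%) and higher in 2049 (12%). Among the called ones, 1250 of the 1275 falls and 431 of the 443 rises were without overlap. The other 25 falls and 12 rises were called although 1 or more day 0.5 libraries lay within the range of day 0. Complete loss was rare at this time. None of the falls was at 0 counts in all day 0.5 libraries, and 6 were at 0 in at least 1 of them.

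Calls were also counted by level of abundance, as the mean CPM over all 18 libraries in 4 classes. A lasting fall lowers this mean and a lasting rise raises it, so the class is not independent of the change. Under 2 CPM, 106 of 2587 gene models fell (4.1%) and 6 rose (0.232%). From 2 to 10 CPM, 462 of 6589 fell (7.01%) and 29 rose (0.44%), and from 10 to 50 CPM, 492 of 5587 fell (8.81%) and 143 rose (2.56%). At 50 CPM or more, 215 of 2366 fell (9.09%) and 265 rose (11.2%). The share of rises was highest in the most abundant class. With the class set by the mean CPM over the 6 libraries compared, 43 of 2538 gene models under 2 CPM fell and 5 rose, 372 of 6454 from 2 to 10 CPM fell and 36 rose, and 598 of 5775 from 10 to 50 CPM fell and 149 rose. At 50 CPM or more 262 of 2362 fell (11.1%) and 253 rose (10.7%). The excess of rises in that class was thus not found with classes set this way, while the share of rises was again highest there. It was found when the fit itself used only the 6 libraries, with classes by the 18. At 50 CPM or more 203 then fell and 378 rose.

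The size of the calls followed the precision at each level. The median log2 fold change of falls and of rises was -1.82 and 1.55 under 2 CPM, -0.89 and 0.82 from 2 to 10 CPM, -0.57 and 0.49 from 10 to 50 CPM, and -0.44 and 0.35 at 50 CPM or more. The median standard error over all gene models was 0.47 in the lowest and 0.10 in the highest of these classes. Low gene models could therefore be called only for large changes. Only 13 of the 215 falls and 4 of the 265 rises at 50 CPM or more were 2-fold or larger. From 10 to 50 CPM, 32 of the 492 falls and 2 of the 143 rises were. The median log2 fold change of all gene models also ran with level, from -0.10 under 2 CPM to 0.10 at 50 CPM or more, and its sign in these 2 classes was the same under every setting counted by class, which leaves out only the counts summed over first numbers. From 10 to 50 CPM it was 0.01, but -0.01 with library totals or with no filter, and -0.02 with ERCC scaling. In that class it was also negative without day 0.5 replicate 1, 2 or 3 and without day 0 replicate 3.

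**Figure D2:**
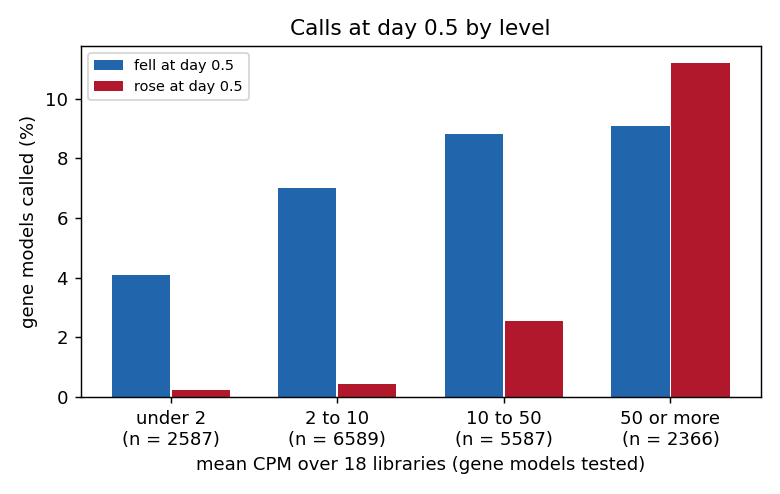
Percent of gene models called as fallen (blue) or risen (red) at day 0.5 (vertical axis) in 4 classes of mean CPM over 18 libraries (horizontal axis, with the number tested). Bars start at 0; in the class of 50 CPM or more 9.09% fell and 11.2% rose, and in each lower class falls outnumbered rises.

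That rises outnumbered falls at 50 CPM or more did not hold under all other settings either. In that class 117 fell and 38 rose with ERCC scaling, 61 fell and 26 rose with a fold limit of 1.2, and 230 fell and 196 rose with no filter on low counts. It also turned when 1 library was dropped: 244 fell against 168 risen for day 0.5 replicate 1, 148 against 141 for day 0.5 replicate 3, and 219 against 148 for day 0 replicate 2. Under the other settings counted by class rises outnumbered falls there, as with upper-quartile scaling (181 fell, 405 rose). Below 50 CPM falls outnumbered rises in each class under every setting counted by class.

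Measured in reads, the change was spread over many transcripts. The 1275 gene models that fell lost 42896 CPM in all between the group means, and the 10 with the largest loss made up 16% of it. The 443 that rose gained 25700 CPM, of which the top 10 made up 27%. A loss of 100 CPM or more was found for 108 of the falls, one of 10 to 100 CPM for 406 and a smaller one for 761. A gain of 100 CPM or more was found for 65 of the rises, one of 10 to 100 CPM for 231 and a smaller one for 147.

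As a share of each library, the fallen gene models held 10.6%, 8.86% and 9.59% of the reads in day 0.5 replicates 1 to 3, against 14.6%, 13.4% and 13.9% in day 0 replicates 1 to 3. The risen ones held 11.1%, 10.4% and 10.4% at day 0.5, against 8.17%, 8.54% and 8.06% at day 0. These libraries chose the gene models, so the gap is a description and has no test. Within day 0.5, replicate 1 was the least far from day 0 for the fallen gene models and the farthest for the risen ones.

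Gene models with large falls showed the same order of libraries at the low end. The 320 that fell 2-fold or more held 0.604%, 0.489% and 0.577% of the reads in day 0.5 replicates 1 to 3, against 1.42%, 1.34% and 1.37% in day 0 replicates 1 to 3. Replicate 2 was again the lowest. The 74 that fell 4-fold or more held 0.0230%, 0.0158% and 0.0221% at day 0.5, against 0.101%, 0.0996% and 0.0976% at day 0. The 18 that rose 2-fold or more were a small part of the RNA, with 0.0864%, 0.0909% and 0.0832% at day 0.5, against 0.0255%, 0.0453% and 0.0304% at day 0.

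**Figure D3:**
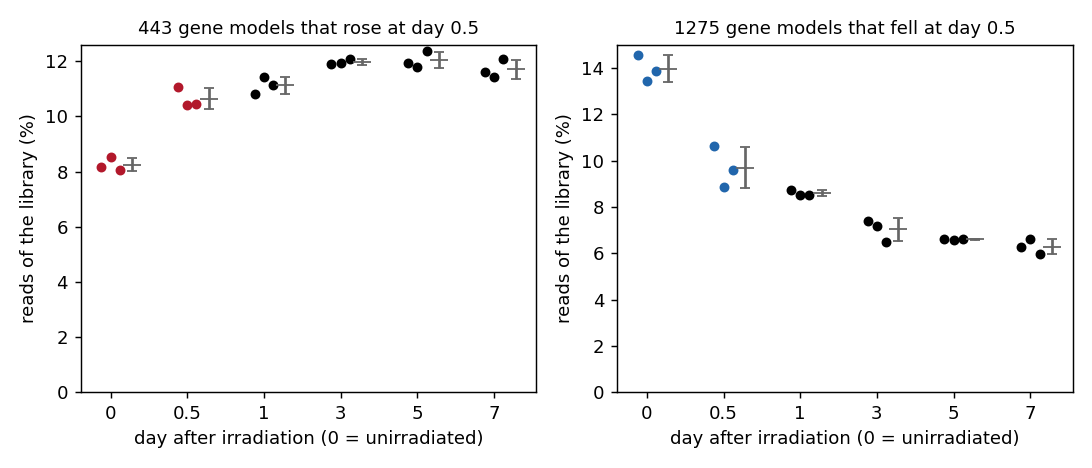
Percent of a library's reads (vertical axis) held by the gene models that rose at day 0.5 (left, 443) and by those that fell (right, 1275), in each library by day after irradiation (horizontal axis; 0 is unirradiated). Points are libraries, coloured where they chose the gene models, and bars give mean and SD (n = 3); the fallen ones held 6.28% of the reads at day 7 and the risen ones 11.7%.

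The later libraries entered the choice only through the filter, the scaling and the shared estimate of spread. In them the fallen gene models took up 8.59 ± 0.122% of a library at day 1 (SD, n = 3, as for all days that follow). That share was 7.03 ± 0.479% on day 3, 6.6 ± 0.0295% on day 5 and 6.28 ± 0.317% on day 7. At every later time the 3 libraries lay below all day 0.5 libraries. The risen ones took up 11.1 ± 0.304% on day 1, then 12 ± 0.106% on day 3, 12 ± 0.305% on day 5 and 11.7 ± 0.343% on day 7. The day 0 shares, which helped to choose the gene models, are not used as a measure of recovery.

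Whether the early changes went on was tested between later days, in contrasts that compare no day 0.5 or day 0 library. Those libraries still entered the filter, the scaling and the shared estimate of spread, so these calls are not fully independent of the calls at day 0.5. At day 7 against day 1, 420 of the 1275 fallen gene models (32.9%) fell further and 29 (2.27%) rose, by edgeR at an adjusted p below 0.05. Over all gene models tested, 12% fell and 9.8% rose in this contrast. Their median log2 fold change was -0.36, against 0.01 over all gene models. The 420 made up 20.4% of all falls of this contrast.

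The fallen gene models had the higher share in each of the 4 classes of level. Under 2 CPM 9.43% of the fallen gene models fell further at day 7 against day 1, against 2.3% of those not called at day 0.5. The shares were 20.6% and 5.08% from 2 to 10 CPM, 34.3% and 13.8% from 10 to 50 CPM, and 67.9% and 26.8% at 50 CPM or more, with the fallen gene models first. Classes were also set by the 6 libraries, which enter these contrasts only through the filter, the scaling and the shared estimate of spread. The shares were then 4.65% (only 2 of 43) and 1.2% under 2 CPM, and 13.2% and 4.37% from 2 to 10 CPM. They were 31.8% and 14% from 10 to 50 CPM, and 68.3% and 30.3% at 50 CPM or more. Leaving out any 1 of the 6 libraries gave between 32.1% and 36.5% of the then fallen gene models, although their number came down to 244 when day 0 replicate 1 was dropped and 247 when it was day 0.5 replicate 2. The 29 that rose were 14 (of 694 then fallen) on dropping day 0.5 replicate 2. They were 15 (of 685) on dropping the first day 0 library and 18 (of 960) on dropping the third.

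The risen gene models were called in both directions afterwards. At day 7 against day 1, 85 of the 443 (19.2%) fell and 87 (19.6%) rose further, with a median log2 fold change of 0.01. At 50 CPM or more, the class of 265 of the 443, 20.8% fell and 23.8% rose, against 26.8% and 23.1% of the gene models not called at day 0.5. From 10 to 50 CPM 18.9% fell and 12.6% rose, against 13.8% and 12.1%. From 2 to 10 CPM 3 of 29 fell and 6 rose, against 5.08% and 6.74%. With classes set by the 6 libraries, 22.1% fell and 22.1% rose at 50 CPM or more, against 30.3% and 21.4%. In that class the share that fell was thus below this background and the share that rose was near it. No difference between the sets was tested. Without single libraries the number that fell was 41 (day 0 replicate 1), 45 (day 0.5 replicate 3), 46 (day 0.5 replicate 2), 49 (day 0 replicate 2) and 53 (day 0 replicate 3). The number that rose further was 40 without day 0 replicate 1, 42 without day 0.5 replicate 3 and 54 without day 0 replicate 2. As shares of the then risen gene models, these came to 18.9% to 21.5% that fell and 18.9% to 24.2% that rose. With ERCC scaling 28.4% of the 67 then risen fell and 13.4% rose. With that scaling 9.3% of all gene models tested fell, a share not matched for level.

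Between neighbouring days, most further falls were called early. At day 3 against day 1, 132 of the fallen gene models (10.4%) fell again and 2 rose, where 2.48% and 0.543% of all gene models did so. At day 5 against day 3, 14 fell again (1.1%, where 1.1% of all did) and 1 rose (0.0992% of all). At day 7 against day 5, 8 fell again (0.627%, where 1.62% of all did) and 2 rose (0.981% of all). The 14 were 8 without day 0 replicate 1, where 685 gene models fell at day 0.5 in place of 1275. The 8 were 4 without day 0 replicate 1, and 5 when day 0 replicate 2, day 0 replicate 3 or day 0.5 replicate 2 was dropped. These too came from fewer fallen gene models. With ERCC scaling the 132 were 23, or 2.83% of the gene models that then fell at day 0.5. The 2.48% of all gene models is from the main scaling and is no background for that share. A share of all with ERCC scaling is not given here.

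Of the risen gene models, 38 (8.58%) fell and 19 (4.29%) rose further at day 3 against day 1. Of all gene models tested, 2.48% fell and 0.543% rose in that step. At day 5 against day 3, 27 fell (6.09%, where 1.1% of all did) and none rose (0.0992% of all). At day 7 against day 5, 29 fell (6.55%, where 1.62% of all did) and 7 rose (1.58%, where 0.981% of all did). These shares of all are not matched for level. The median level was 67.5 CPM for the risen gene models and 8.8 CPM for all. Each fit without 1 of the 6 libraries had fewer risen gene models, 191 to 328 in place of the 443. The 38 were 25 when day 0 replicate 1, day 0 replicate 2 or day 0.5 replicate 2 was dropped. Dropping any 1 of the 6 libraries other than day 0.5 replicate 1 gave 11 to 15 in place of the 27 and 11 to 19 in place of the 29. The 19 were 11 without day 0 replicate 2 and 43 by DESeq2. The 7 were 14 without day 0.5 replicate 1, and 3 when day 0.5 replicate 2 or 3 was dropped.

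**Figure D4:**
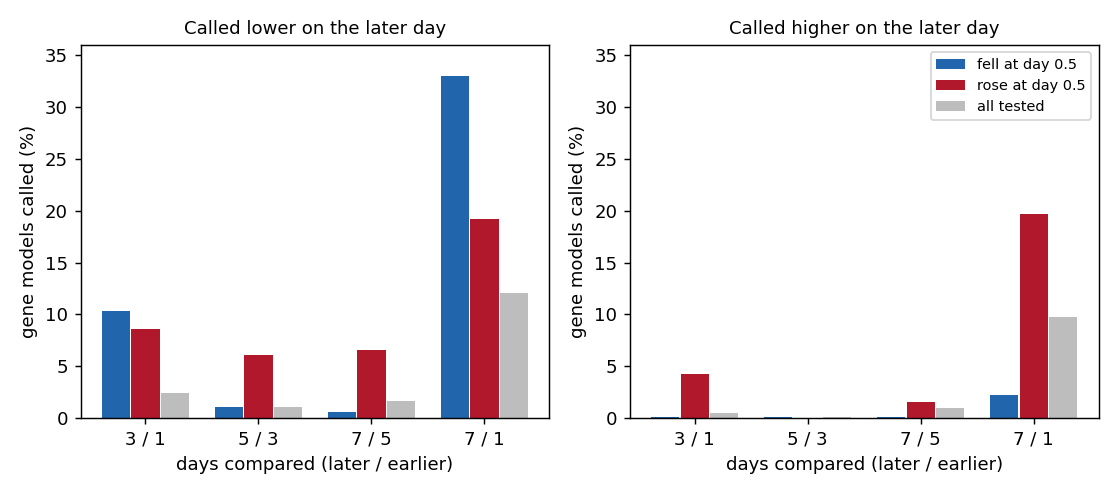
Percent of gene models called (vertical axis) as lower (left) or higher (right) on the later of 2 days after irradiation (horizontal axis), for gene models that fell (blue, 1275) or rose (red, 443) at day 0.5 and for all tested (grey, 17129). None of the contrasts compares day 0.5 or day 0, whose libraries entered only the filter, the scaling and the shared estimate of spread. At day 7 against day 1, 32.9% of the fallen gene models fell further, against 12% of all.

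The gene model that rose most by fold was DjGI016614-001. It had 28.1, 28.2 and 30.3 CPM in day 0.5 replicates 1 to 3, against 5.30, 4.34 and 6.89 CPM in day 0 replicates 1 to 3. The groups were far apart, and the day 0.5 libraries were close together. The log2 fold change was 2.43 ± 0.16 (SE), or 5.39-fold (edgeR adjusted p = 2.03e-11), and 2.27 to 2.57 with any 1 of the 6 libraries left out. At day 1 its mean was 28 ± 4.02 CPM (SD, n = 3), with a log2 fold change from day 0.5 of -0.05 ± 0.13 (SE; edgeR adjusted p = 0.951). So this transcript stood near its highest measured level at day 0.5 already. At day 3 against day 1 it fell by 0.70 on the log2 scale (SE 0.14; edgeR adjusted p = 0.00265).

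The largest gain in CPM belonged to DjGI017779-001, among the 359 rises that met the naming rule (no overlap and at least 20 CPM). It had 8712, 8423 and 8721 CPM in day 0.5 replicates 1 to 3, against 7482, 6681 and 7450 CPM in day 0 replicates 1 to 3. The groups did not overlap, but the change was small beside that of the first gene model, with a log2 fold change of 0.26 ± 0.08 (SE), or 1.2-fold (edgeR adjusted p = 0.0339). The call was lost without any one of the 6 libraries, with adjusted p between 0.0611 and 0.149, with ERCC scaling (edgeR adjusted p = 0.392), with no filter (edgeR adjusted p = 0.0514) and against a fold limit of 1.2 (edgeR adjusted p = 0.836). Its mean was 8612 ± 395 CPM on day 1, 10470 ± 197 on day 3, 10229 ± 411 on day 5 and 9676 ± 767 on day 7 (SD over 3 libraries). Its rise at day 3 against day 1 was 0.28 ± 0.08 on the log2 scale (SE; edgeR adjusted p = 0.0469).

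By fold, DjGI012618-001 fell most among the 642 falls that met the naming rule. It had 3.73, 3.8 and 5.95 CPM in day 0.5 replicates 1 to 3 (26, 40 and 62 counts), against 34.4, 31.4 and 34.3 CPM in day 0 replicates 1 to 3 (390, 405 and 249 counts). Every day 0.5 library was far below every day 0 library, and replicate 3 was the highest of its group. The log2 fold change was -2.87 ± 0.20 (SE; edgeR adjusted p = 5.47e-11), and -3.15 to -2.75 with any 1 of the 6 libraries left out. At day 1 against day 0.5 it fell by a further 1.15 on the log2 scale (SE 0.27; edgeR adjusted p = 0.0261), but that step was not called without day 0.5 replicate 3 (edgeR adjusted p = 0.268). By day 7 its libraries held 4, 0 and 3 counts.

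The largest loss in CPM belonged to DjGI016853-001. It had 1965, 1675 and 1842 CPM in day 0.5 replicates 1 to 3, against 3623, 3387 and 4058 CPM in day 0 replicates 1 to 3. The highest day 0.5 library was thus well below the lowest day 0 library. The log2 fold change was -1.01 ± 0.10 (SE), or 0.495-fold (edgeR adjusted p = 7.33e-08), and -1.09 to -0.95 with any 1 of the 6 libraries left out.

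DjGI016853-001 went on falling. Its mean was 1192 ± 62.4 CPM on day 1, 871 ± 100 on day 3, 692 ± 43.7 on day 5 and 601 ± 90.9 on day 7 (SD over 3 libraries). It was lower at day 1 than at day 0.5 by a log2 fold change of -0.62 ± 0.10 (SE; edgeR adjusted p = 0.000693), and at day 3 than at day 1 by -0.45 ± 0.10 (SE; edgeR adjusted p = 0.0106). The log2 change of day 5 over day 3 was -0.33 (edgeR adjusted p = 0.15) and that of day 7 over day 5 was -0.20 (edgeR adjusted p = 0.365), which did not pass. Each of the 4 named IDs is the only one with its first number.

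**Figure D5:**
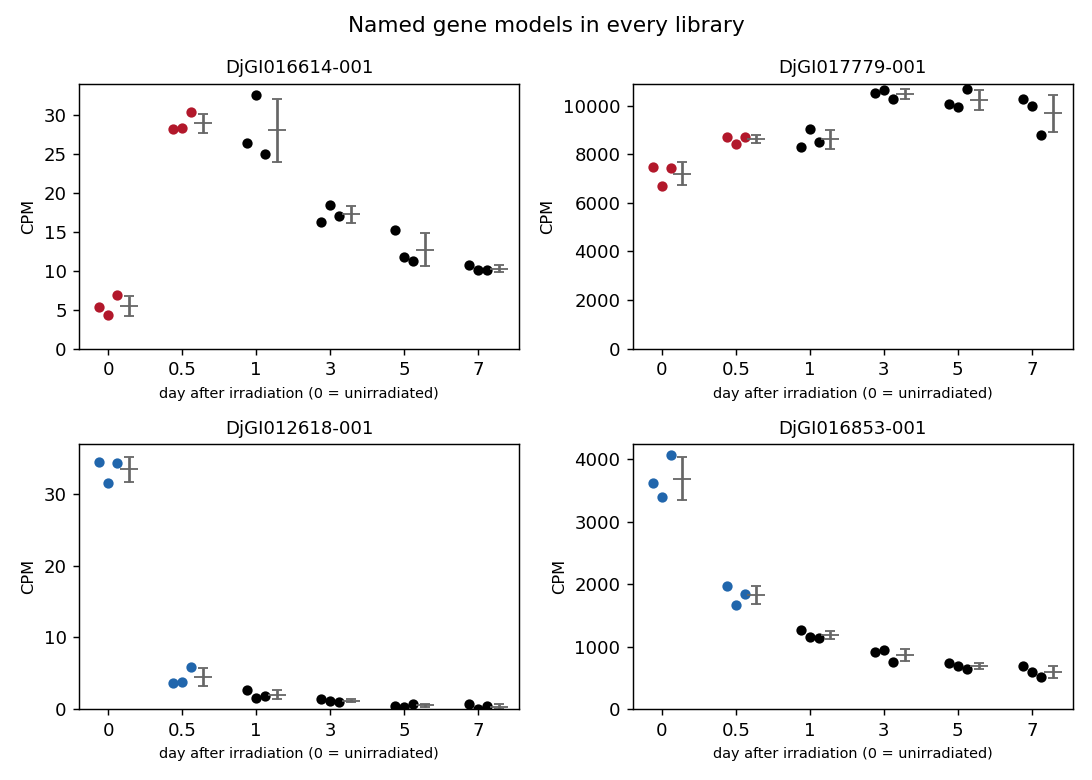
CPM (vertical axes, from 0) of the 4 named gene models in every library by day after irradiation (horizontal axes; 0 is unirradiated), with mean and SD (n = 3) beside the points. Upper panels rose and lower panels fell at day 0.5, and the coloured points are the days compared; DjGI016853-001 went on falling to 601 CPM at day 7, and DjGI016614-001 was at 10.3 CPM there.

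Some IDs share their first number and may be near-identical copies or transcript variants, between which reads can be divided. Of the 13398 first numbers tested, 1992 had 2 or more tested gene models, 5723 in all. Of these 5723, 356 fell (6.22%) and 144 rose (2.52%), and among the 11406 gene models that were the only one tested of their first number 8.06% fell and 2.62% rose. At 124 first numbers 2 or more gene models were called. All of them fell at 92, all rose at 30, and both directions occurred at 2. With counts summed over each first number, 1042 of 13554 fell and 393 rose.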

How the data were processed

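Per the file headers, the deposited table holds estimated counts per gene model and library, not normalized, which the authors made with tools that the submitters' processing notes list, with no role or order, as BWA 0.7.17-r1188, fastp 0.21.0 and Salmon. A second deposited table gives, per the file headers, the total count, the number of rows above 0 and the day of each library, and its days were the same as those of the sample titles. Build and gene model source are not given in sources used here. All 92 ERCC rows (0.004% of the counts) entered neither library sizes nor tests, and the 38 values that were not whole were rounded.

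Gene models were filtered with edgeR's default by group (minimum count 10, minimum total 15), scaled by TMM (factors 0.937 to 1.02 in the 6 libraries) and fitted with the quasi-likelihood test of edgeR 4.0.16 in R 4.3.3 over all 18 libraries, 1 mean per group. All tests were two-sided, and p-values were adjusted by Benjamini-Hochberg over all 17129 gene models and a threshold of 0.05. The SE was approximated as the log2 fold change over the root of its F value. The fit was tested on simulated data. Named IDs are, in each direction, the one with the largest log2 fold change and the one with the largest CPM difference among calls with no overlap and at least 20 CPM in the higher group. The gene models, lists and tests were chosen with earlier results of these data known; the contrast of day 7 with day 1 and the classes of level were added after seeing the data. Marker lists could not be matched to IDs and were not tested. Alternatives were DESeq2 1.42.0, other scalings and filters, thinning, a replicate block, the 6 libraries alone, a fold limit, summed IDs and leaving out each library.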

Additional observations from a re-analysis of the deposited data

Results flagged for a closer look

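The changes at day 1 and at day 0.5, both against day 0, were set against each other in the step from day 0.5 to day 1, and 185 gene models differed (edgeR adjusted p below 0.05): 145 were lower and 40 higher at day 1. At an unadjusted p below 0.05 there were 1786. Among the named IDs, DjGI012618-001 was lower at day 1 by a log2 value of -1.15 (SE 0.27; edgeR adjusted p = 0.0261), which was not called with ERCC scaling (-1.07; edgeR adjusted p = 0.0705), thinned libraries (-1.07; edgeR adjusted p = 0.234), a fold limit of 1.2 (edgeR adjusted p = 0.105) or without day 0.5 replicate 3 (-0.88; edgeR adjusted p = 0.268). DjGI016853-001 was lower at day 1 by a log2 value of -0.62 (SE 0.10; edgeR adjusted p = 0.000693), which was not called with ERCC scaling, at a similar size (-0.54; edgeR adjusted p = 0.0541).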

How the results depend on the processing

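Direction held for the 4 named IDs at day 0.5 under the alternatives run, except that DjGI017779-001 has no value without the 10 most abundant gene models, of which it is one. With ERCC scaling 881 gene models were called at day 0.5 (814 fell, 67 rose), and with a fold limit of 1.2 there were 576 (528 fell, 48 rose). With upper-quartile scaling 689 rose. Leaving out 1 library gave 876 to 1615 calls, 685 to 1287 falls and 191 to 328 rises; of the falls and rises with all libraries, 658 to 1090 and 181 to 246 were still called. Of the fallen gene models, 23 fell further at day 3 against day 1, 5 at day 5 against day 3 and 0 at day 7 against day 5 with ERCC scaling, 19, 2 and 0 with the fold limit, and 82, 7 and 4 with thinned libraries. With upper-quartile scaling 4 did so at day 7 against day 5. Leaving out 1 library gave 93 to 161, 8 to 13 and 4 to 9. At day 7 against day 1 the 420 that fell further were 229 with ERCC scaling and 116 with the fold limit, from fewer fallen gene models (28.1% and 22% of them). Of all gene models tested, 9.3% and 7.23% fell in that contrast under these settings, against 12% in the main fit. Of the risen gene models, 7, 6 and 9 fell in the same steps with ERCC scaling and 6, 1 and 2 with the fold limit, and 25 to 29, 11 to 21 and 11 to 26 without 1 library. Of these shifts, the fold limit asks for larger changes and thinning removes reads; for the others the cause was not tested. The fit over 6 libraries has no later days and gave no value for these steps.

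The replicate numbers were also fitted as a block, with 1715 calls (1265 fell, 450 rose). Deviations of same-numbered day 0.5 and day 0 libraries correlated at 0.02 to 0.12, and at -0.12 to 0.03 for other pairings. These correlations were small, but 5 of the 6 libraries correlated best with their own number. The labels do not say what a number stands for, and the main fit did not use it. Whether same-numbered libraries are paired was not tested. The block changed the call of none of the 4 named IDs.

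Depth limits the low gene models: under 2 CPM the median SE was 0.47 on the log2 scale. ERCC scaling rests on 294 to 487 counts in each of the 6 libraries.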

Other observations

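Of the gene models not called at day 0.5, 201 differed from day 0 by 2-fold or more in the fitted values, 133 of them lower and 68 higher, and their median level was 0.982 CPM over the 18 libraries, against 8.8 CPM for all gene models tested. The median level was 12 CPM for the gene models that fell and 67.5 CPM for those that rose. Over the whole count table, 9 gene models had no count in any day 0.5 library and at least 10 counts in the day 0 libraries together, and 2 had no count at day 0 and at least 10 at day 0.5; none of the 9 was among the gene models called as fallen.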
